A study of Homo sapiens with 6 samples.

Results

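Antisense genes are transcribed from the strand opposite to a neighbouring or overlapping gene, and the part of the KMS27 transcriptome described here is the set of named antisense genes that these cells express. A gene was taken when its symbol ended in -AS and a number and its mean over the 6 libraries was at least 2 TPM (a length-corrected share of a library's transcripts). This rule gave 236 gene IDs of 63677 genes in all, and of 956 gene IDs with such a symbol at any level. They carry 231 symbols, since APOBEC3B-AS1, LENG8-AS1, TMLHE-AS1, WEE2-AS1 and HCFC1-AS1 are each listed under 2 gene IDs with identical values. Members were thus selected on the mean of TPM as deposited over both groups, and the rule did not use the difference between the groups. It was chosen with earlier results of these data known. Just inside the threshold lay TRAPPC12-AS1 at 2.01, SNAI3-AS1 at 2.02 and PLCXD2-AS1 at 2.02 TPM, and just outside lay ZNF32-AS1 at 1.98, STARD7-AS1 at 1.98 and RAI1-AS1 at 1.94 TPM. The group means were at or above 2 TPM in both groups for 198 of the 236 gene IDs, in controls alone for 37 and in HA-TAZ libraries alone for 1. These are means of TPM as deposited, on which the median log2 fold change (HA-TAZ minus control) of all 22651 genes tested was −0.27. The corresponding counts over all genes are not given.

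Each antisense gene was set beside its partner, the gene whose symbol precedes -AS. As background, many antisense RNAs start at the partner's own promoter and run the other way, while others lie across the partner's body or its last exons. Most are non-coding, many stay in the nucleus near their site of synthesis, and many are turned over there by the RNA exosome. Some are known to act on the partner's transcription, splicing or RNA stability, some act elsewhere, and for many no function is known.

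KMS27 is an established human myeloma line, a cancer of plasma cells. The series compared 3 libraries of wild type KMS27 cells with 3 libraries of KMS27 cells overexpressing HA-TAZ. TAZ, the product of WWTR1, is a coactivator of the Hippo pathway that binds DNA through TEAD factors, and HA is a peptide tag. The promoter of the construct, the number of clones and any vector in the controls are not given in the sources used here. The HA-TAZ columns carry the number of their sample titles. The control columns carry a name found in no label and were assigned to the wild type group because no other samples were left, so they are called control a, b and c. No label says that the libraries of a group came from separate cultures, so every p-value here measures the spread between libraries, which may be technical. Ribosomal RNA was depleted and poly(A) RNA was not selected, so unspliced and nuclear RNA was also sequenced. The kit keeps the strand of the RNA, but whether the quantification used it is not stated. Without it, reads from exons that an antisense gene shares with its partner cannot be told apart.

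RefSeq promoter windows on GRCh38.p14, from 250 bases before to 50 after a start, matched 154 of the 231 antisense symbols through their current names, with a RefSeq start within 500 bases of a GENCODE 29 transcript start of the same gene ID. The windows below are shown because they lie at annotated transcript starts of genes whose RNA passed the test described further on. For TMEM161B-AS1, CHRM3-AS2, PCBP1-AS1 and NUTM2A-AS1 the RefSeq start is inside the GENCODE gene and is not its outermost start. The sequences run 5′ to 3′ along the antisense gene, and capitals mark the dinucleotide CG. The first pair belongs to the antisense genes that were higher in HA-TAZ libraries, and the other 4 to genes that were lower. HIF1A-AS2 in the files is the gene ID that current tables name HIF1A-AS3, BZRAP1-AS1 is now TSPOAP1-AS1, and TMEM161B-AS1 is now TMEM161B-DT.
HIF1A-AS2, chr14:61751048-61751347, minus strand: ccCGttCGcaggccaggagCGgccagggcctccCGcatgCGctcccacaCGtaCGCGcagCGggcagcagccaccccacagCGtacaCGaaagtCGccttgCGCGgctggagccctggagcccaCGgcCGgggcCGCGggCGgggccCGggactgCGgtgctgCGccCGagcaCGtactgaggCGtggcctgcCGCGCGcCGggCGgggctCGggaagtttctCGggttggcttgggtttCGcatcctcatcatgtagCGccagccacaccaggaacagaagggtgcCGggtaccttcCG
BZRAP1-AS1, chr17:58325200-58325499, plus strand: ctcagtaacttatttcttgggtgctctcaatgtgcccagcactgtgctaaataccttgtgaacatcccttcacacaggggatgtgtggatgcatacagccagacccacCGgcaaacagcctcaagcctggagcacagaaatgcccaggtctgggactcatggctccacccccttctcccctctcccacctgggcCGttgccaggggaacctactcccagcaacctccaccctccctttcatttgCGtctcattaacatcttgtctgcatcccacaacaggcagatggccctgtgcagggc
PCBP1-AS1, chr2:70086966-70087265, minus strand: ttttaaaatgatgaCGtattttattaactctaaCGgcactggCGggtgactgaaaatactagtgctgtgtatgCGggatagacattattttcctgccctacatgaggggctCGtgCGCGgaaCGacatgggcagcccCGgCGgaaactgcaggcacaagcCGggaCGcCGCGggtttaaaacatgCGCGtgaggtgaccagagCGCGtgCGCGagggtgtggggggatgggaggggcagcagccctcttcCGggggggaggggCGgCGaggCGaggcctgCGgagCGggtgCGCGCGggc
NUTM2A-AS1, chr10:87342509-87342808, minus strand: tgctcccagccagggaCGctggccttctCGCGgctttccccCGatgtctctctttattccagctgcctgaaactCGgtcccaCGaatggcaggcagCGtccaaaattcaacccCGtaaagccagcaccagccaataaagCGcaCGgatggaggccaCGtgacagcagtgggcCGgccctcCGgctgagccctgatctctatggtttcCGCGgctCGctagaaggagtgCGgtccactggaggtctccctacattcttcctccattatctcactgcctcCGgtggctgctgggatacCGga
TMEM161B-AS1, chr5:88391945-88392244, plus strand: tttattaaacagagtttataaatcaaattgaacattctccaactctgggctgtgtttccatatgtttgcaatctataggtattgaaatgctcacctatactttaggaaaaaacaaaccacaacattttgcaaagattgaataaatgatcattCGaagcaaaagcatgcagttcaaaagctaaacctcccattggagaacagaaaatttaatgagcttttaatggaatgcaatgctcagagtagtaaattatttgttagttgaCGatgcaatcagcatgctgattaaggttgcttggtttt
CHRM3-AS2, chr1:239719070-239719369, minus strand: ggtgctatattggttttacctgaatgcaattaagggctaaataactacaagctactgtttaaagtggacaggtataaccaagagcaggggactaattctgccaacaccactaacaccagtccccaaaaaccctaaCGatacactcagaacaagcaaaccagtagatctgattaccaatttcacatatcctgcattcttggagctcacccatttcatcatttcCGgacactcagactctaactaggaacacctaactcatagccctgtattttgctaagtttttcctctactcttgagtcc

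The HIF1A-AS2 and PCBP1-AS1 windows hold 36 and 29 CG and the NUTM2A-AS1 window holds 19, while BZRAP1-AS1 holds 3 and TMEM161B-AS1 and CHRM3-AS2 hold 2 each. The called genes that fell also include UGDH-AS1, INTS6-AS1 and ARHGEF26-AS1, whose windows hold 28, 44 and 33 CG and are not printed because they cover UTRs. The median was 25 CG over the 154 antisense windows and 14 over all 35097 RefSeq windows. At least 10 CG were present in 113 of the 154 windows (73.4%) and in 56.4% of all windows. GGAATG, the core letters bound by TEAD factors, was searched on both strands and was present in 17 of the 154 windows (11%) and in 14.0% of all windows. Of the windows printed, only that of TMEM161B-AS1 holds it. In GENCODE 29 the windows of BZRAP1-AS1 and CHRM3-AS2 lie inside the body of the partner without touching its coding exons or UTRs, and that of PCBP1-AS1 overlaps the PCBP1 window on the other strand. For 134 pairs both genes had a window, and the windows overlapped on opposite strands in 43 of them. The median log2 fold change was −0.07 for the antisense genes of those 43 pairs and −0.13 for the 91 whose windows lay apart. It was −0.09 with at least 10 CG and −0.17 with fewer (41 genes), values that were not tested against each other.

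WWTR1 was at 293, 306 and 293 TPM in HA-TAZ 1, 2 and 3 and at 2.69, 2.22 and 1.69 TPM in control a, b and c, which matches the labels. Its own antisense gene, WWTR1-AS1, stayed below the level rule at 0.464, 0.821 and 0.545 TPM against 0.812, 0.654 and 0.546 TPM, and the groups overlapped. Of the 10 plasma cell markers found, 9 were at 1 TPM or more, with summed levels of 2785 to 3217 TPM in HA-TAZ libraries and 4270 to 4825 TPM in controls, while CD27 was below 1 TPM. These sums are in TPM as deposited, on which the median log2 fold change of all genes tested was −0.27, and scaled sums are not given. The marker lists of T cells, myeloid, erythroid, stromal and epithelial cells summed to at most 4.89 TPM in any library, and S100A8 and S100A9 were listed at 0 throughout. Since TPM states shares of a library, TPM was divided by a median-of-ratios factor, from 0.866 to 0.967 in HA-TAZ libraries and from 1.06 to 1.21 in controls, to give scaled TPM. The single libraries' depth is unknown. The authors' deposited table implies a median of 237 estimated counts per library for an antisense symbol, with quartiles of 95.3 and 507. In bulk RNA, fewer cells that express a gene and less of its RNA per cell cannot be told apart.

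Expressed antisense genes were mostly at low levels. Of the 236 gene IDs, 128 had a mean of 2 to 5 TPM, 61 of 5 to 10, 31 of 10 to 20 and 15 of 20 to 100 TPM, and 1 was above 100 TPM. That 1 was FAM211A-AS1, now SNHG29, a host gene of small nucleolar RNAs, at 732, 784 and 711 TPM in HA-TAZ libraries and 818, 857 and 848 TPM in controls. HNRNPU-AS1 followed at 46.7, 51.7 and 44.3 against 111, 70.5 and 65.8 TPM, with control a far above the other controls. OIP5-AS1, a non-coding RNA also known as cyrano, was at 36.5, 39.5 and 37.2 against 53.1, 45.7 and 46.2 TPM. All antisense symbols without FAM211A-AS1 summed to 1320, 1523 and 1427 TPM in HA-TAZ libraries and to 2174, 1901 and 1843 TPM in controls. In scaled TPM these sums were 1525, 1575 and 1603 against 1798, 1744 and 1743. The sum was lower in each HA-TAZ library than in any control on both scales (exact two-sided permutation p = 0.1, the smallest that 3 against 3 allows). The sums include genes that reached 2 TPM in controls alone (37 gene IDs, against 1 in HA-TAZ libraries alone), so the level rule bears on this comparison. Sums without them are not given. In TPM as deposited the median log2 fold change of all genes tested was also negative, at −0.27.

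Among antisense genes above the level rule, the level of the gene and that of its partner showed little relation in rank. A partner was found by symbol for 234 of the 236 gene IDs, all but those of JHDM1D-AS1 and KRTAP5-AS1, and these are 226 distinct genes. The partner's mean TPM had a median of 17.7 over the 229 symbols with a partner, and the antisense gene's median share of the pair's TPM was 23.4%. The partner stood more than 10 times above its antisense gene in 55 pairs, and the antisense gene stood above its partner in 65. At one end lay TPT1-AS1 at 8.04 TPM beside TPT1, the translationally controlled tumour protein, and GNAS-AS1 and VIM-AS1 beside GNAS, a G protein subunit, and VIM, the intermediate filament vimentin. The antisense share there was 0.744% ± 0.0248, 0.573% ± 0.129 and 0.600% ± 0.126 in controls (SD, n = 3 each). At the other end SLC39A12-AS1, RGPD4-AS1 and OTX2-AS1 were expressed while their partners were listed at or near 0 in every library. Across the 229 pairs the Spearman correlation of the mean levels was 0.03, given as a description because all values come from the same 6 libraries.

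**Figure D1:**
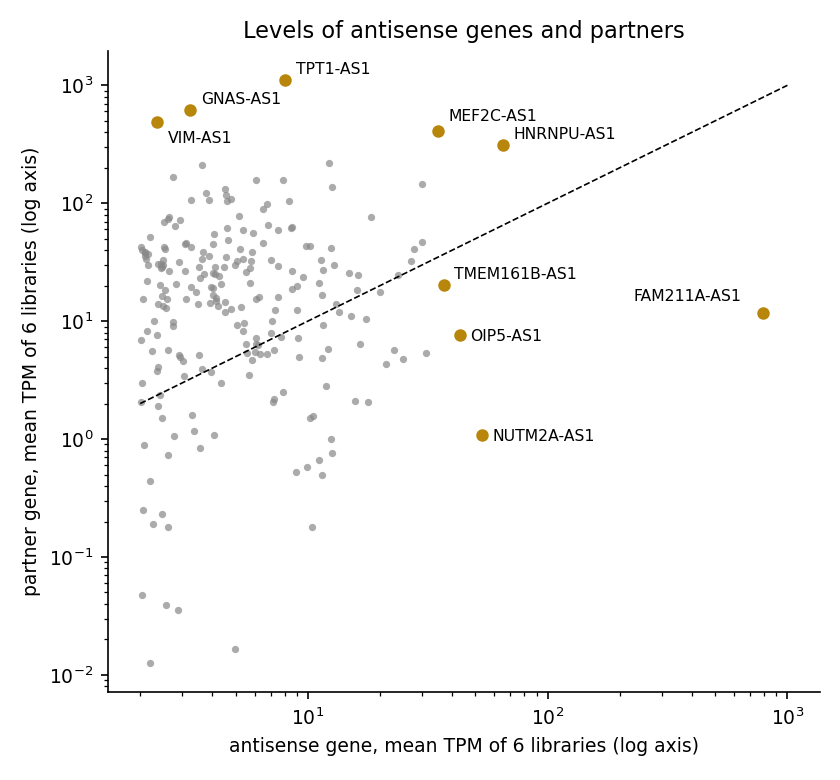
Mean TPM of each antisense gene (horizontal, log axis) against that of its partner (vertical, log axis) over 6 libraries, 1 point per pair, for the 227 pairs whose partner reached 0.01 TPM. Points above the dashed line of equal levels have a partner above the antisense gene; FAM211A-AS1 stands apart on the right, and TPT1-AS1, GNAS-AS1 and VIM-AS1 lie highest above it.

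Antisense genes as a set lay lower in HA-TAZ libraries. The median log2 fold change over the 236 gene IDs was −0.13, against −0.03 over all 22651 genes tested, and 169 of the 236 (71.6%) had a negative value, against 53.3% of all genes tested. These values and the counts below include the 37 gene IDs that reached 2 TPM in controls alone, against 1 in HA-TAZ libraries alone. They are not given for the other 198 separately. Over the 108 antisense gene IDs at a mean of 5 TPM or more the median was −0.12. Fold changes are HA-TAZ minus control on log2(scaled TPM + 1), which understates the changes of genes near 1 TPM. By limma with Benjamini-Hochberg adjustment over all genes, 13 of 236 passed an adjusted p of 0.05, or 5.51%, below the 7.29% of all genes tested that passed. Of these, 2 were higher and 11 lower, the 11 including both IDs of APOBEC3B-AS1, while 4.67% of all genes were called higher and 2.63% lower. The count itself is therefore no larger than in other genes, and in scaled TPM the antisense genes differed from the background in sign. The groups did not overlap for 76 antisense gene IDs that were lower (32.2%, against 18.3% of all genes tested) and for 18 that were higher (7.63%, against 20.2%). All genes tested were cut at a mean of 1 TPM, and the antisense genes at 2 TPM. Of the 18072 genes at 2 TPM or more, 8.70% were called and 49.8% had a negative value, with a median of 0.002. Their groups did not overlap in 17.7% that were lower and in 23.6% that were higher. With TPM as deposited the median of all genes moved to −0.27 and that of the antisense genes to −0.38, so the distance between them was −0.10 on either scale. On that scale 57 antisense gene IDs were called, 56 of them lower, while 14.7% of all genes were called and 7.84% of those were higher, so the background was mostly lower there as well. No more than 1 of 236 passed when any single library was left out, with 43 to 57 lower and 7 to 11 higher at an unadjusted p under 0.05 (limma). Over all genes tested, 0.517% to 1.92% passed the adjusted threshold in those fits, against 7.29% with every library kept. The unadjusted shares of all genes are not given for those fits.

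The same position was measured for other non-coding genes. At a mean of 2 TPM or more, 107 LINC-named genes had a median of −0.18 with 14 called (13.1%, 4 higher). At that level 892 further genes of GENCODE type antisense without an -AS name had a median of −0.19 with 48 called (5.38%, 7 higher). Protein-coding genes, 10489 at that level, had a median of 0.07, and 849 of their 1098 calls (10.5%) were higher. Of all genes at that level 8.70% were called, and of the antisense genes 5.51%. The partners of the antisense genes had a median of 0.01. By the sign of the median the antisense genes thus lay on the side of the other non-coding genes, though LINC-named genes were called more often. The classes were not tested against each other.

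**Figure D2:**
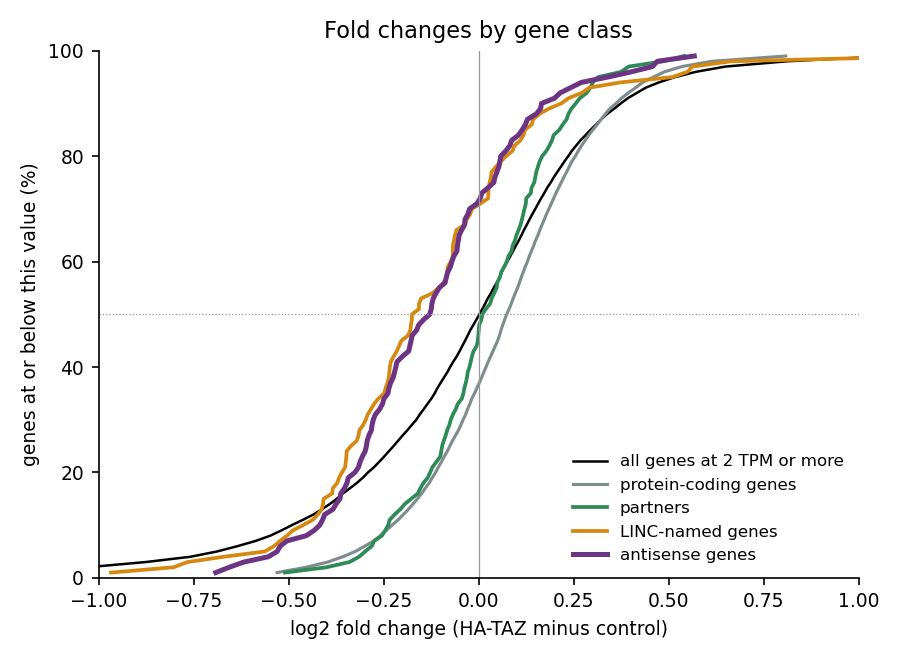
Percentiles of the log2 fold change (HA-TAZ minus control) for antisense genes, partners, LINC-named genes, protein-coding genes and all genes at 2 TPM or more. The antisense and LINC-named curves run together on the left, with medians of −0.13 and −0.18, and the partners and protein-coding genes lie to the right, with medians of 0.01 and 0.07.

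PCBP1-AS1 showed the largest fall among the antisense genes that passed the test. It was at 20.9, 20.6 and 24.9 scaled TPM in HA-TAZ 1, 2 and 3 and at 38.9, 31.3 and 35.8 in control a, b and c. Every HA-TAZ library lay below every control, and the log2 fold change came to −0.65 ± 0.11 (standard error, limma adjusted p = 0.0331 after Benjamini-Hochberg). Its locus has more annotated transcripts than any other in the set, 63, and the transcript with the clearest fall in the authors' deposited table was ENST00000609543.1. That transcript was at 1.41, 2.12 and 2.37 TPM against 13.0, 8.12 and 7.24 TPM, and the authors' deposited table gives it a natural log effect of −1.34 ± 0.330 (standard error, q = 0.00253). PCBP1, which encodes an RNA-binding protein, had a log2 fold change of 0.25 that did not pass (adjusted p = 0.0806).

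SLC39A12-AS1 was at 3.91, 5.19 and 4.68 scaled TPM against 8.35, 7.5 and 6.86, a log2 fold change of −0.62 ± 0.12 (standard error, limma adjusted p = 0.0419). Its partner, a zinc transporter gene, was listed at 0 in 5 libraries and at 0.00810 TPM in control b, so this antisense RNA was measured in cells with next to no partner RNA. ARHGEF26-AS1 (−0.59) and UGDH-AS1 (−0.55), opposite the enzyme that makes UDP-glucuronate, fell as well, at adjusted p-values of 0.0481 and 0.0497 (limma). UGDH-AS1 was at 15.8, 20.7 and 18.9 against 29.9, 27.5 and 24.7 scaled TPM. UGDH itself had a log2 fold change of 0.00 (adjusted p = 0.991), and the antisense gene and UGDH start 292 bases apart in GENCODE 29.

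CHRM3-AS2, which lies within the gene of the M3 muscarinic receptor, had tight replicates. It was at 2.74, 2.73 and 2.56 scaled TPM in HA-TAZ libraries and at 4.57, 3.91 and 4.48 in controls, a log2 fold change of −0.53 ± 0.09 (standard error, limma adjusted p = 0.0348). APOBEC3B-AS1, opposite a gene for a cytidine deaminase that acts on DNA, was at 4.29, 4.92 and 4.95 against 6.91, 7.40 and 7.33, with −0.52 ± 0.08 (adjusted p = 0.0295). The gap between the groups was wider than the range within either. APOBEC3B-AS1 passed under all 7 alternative settings that kept every library, more than any other antisense gene described here.

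CELF2-AS1 (−0.43) and INTS6-AS1 (−0.38), opposite genes for a splicing regulator and for a subunit of the Integrator complex, fell at adjusted p-values of 0.0444 and 0.0498 (limma). TMEM161B-AS1, the fifth most abundant antisense gene, was at 29.1, 32.6 and 31.4 scaled TPM against 42.6, 40.5 and 39.1, a log2 fold change of −0.38 ± 0.06 (standard error, limma adjusted p = 0.0313). NUTM2A-AS1, the third most abundant, was at 44.7, 47.9 and 47.1 against 60.7, 56.2 and 55.0, with −0.29 ± 0.06 (adjusted p = 0.0411). In both, the groups were well separated and the change was modest. TMEM161B had a log2 fold change of 0.00 and NUTM2A, near 1 TPM, of −0.10, and neither passed. None of the antisense genes that fell kept an adjusted p under 0.05 when a single library of either group was left out. The lowest adjusted p in those fits was 0.0585 for TMEM161B-AS1 and 0.0603 for PCBP1-AS1.

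HIF1A-AS2 showed the largest rise of all 236. It was at 8.23, 12.1 and 11.9 scaled TPM in HA-TAZ 1, 2 and 3 and at 4.03, 4.76 and 5.15 in control a, b and c, a ratio of the means of 2.31. The groups did not overlap, though HA-TAZ 1 lay below the other HA-TAZ libraries. The log2 fold change was 1.04 ± 0.16 (standard error, limma adjusted p = 0.0308). Without HA-TAZ 1 it was 1.22 (adjusted p = 0.0426), and without any other single library it lay between 0.96 and 1.11 with adjusted p-values of 0.0600 to 0.0897. The gene has 1 transcript in the files, ENST00000554254.1, and its q in the authors' deposited table was 6.12e-07. Its exons do not overlap those of HIF1A, which encodes the oxygen-regulated subunit of a hypoxia factor. HIF1A had a log2 fold change of 0.38 (adjusted p = 0.0691).

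BZRAP1-AS1, opposite a gene whose product binds the mitochondrial translocator protein, was at 26.4, 25.7 and 26.6 scaled TPM against 19.5, 17.6 and 21.9, a log2 fold change of 0.40 ± 0.08 (standard error, limma adjusted p = 0.0466). This rise rests on the scaling: with TPM as deposited the groups overlapped and the log2 fold change was 0.12 (adjusted p = 0.379). It kept its call in 1 of the 6 fits without a library, that without control c (0.48, adjusted p = 0.0480). EPB41L4A-AS1, a small nucleolar RNA host gene, and BACH1-AS1 had the next largest positive values, 0.57 (adjusted p = 0.0822) and 0.66 (adjusted p = 0.257), and did not pass by limma.

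**Figure D3:**
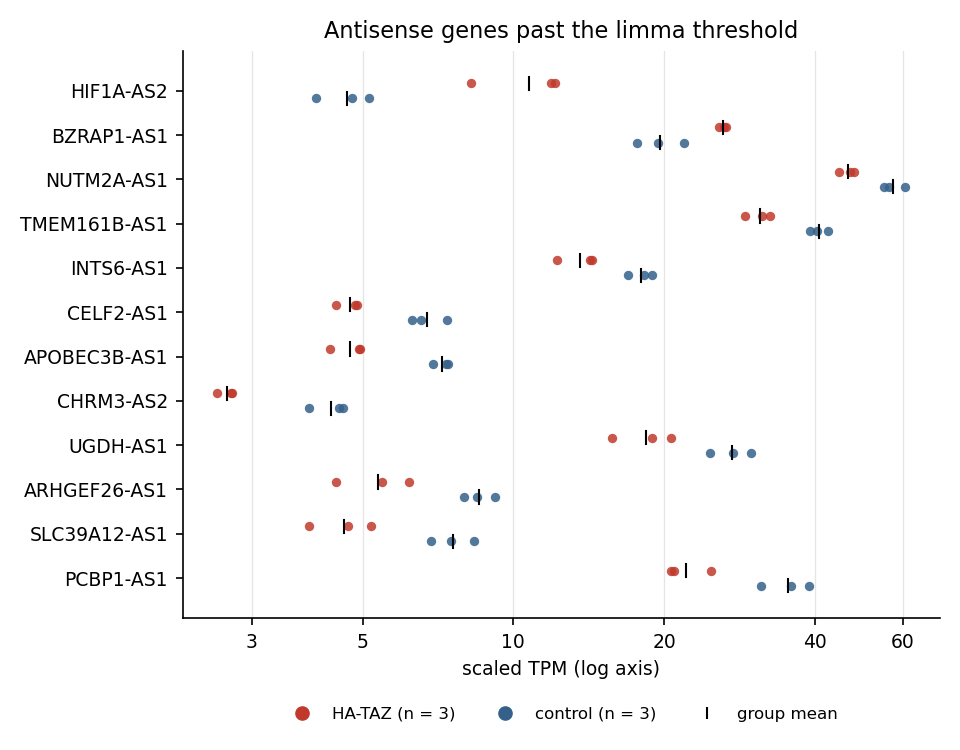
Scaled TPM per library (log axis) of the 12 antisense symbols past the limma threshold, ordered by log2 fold change, with HA-TAZ libraries in red, controls in blue and group means as bars. HIF1A-AS2 and BZRAP1-AS1 lie to the right of their controls and the other 10 to the left, with no overlap between groups in any row.

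The other abundant antisense genes did not pass. FAM211A-AS1 was at 845, 811 and 799 scaled TPM against 676, 786 and 802 (log2 fold change 0.12, adjusted p = 0.350), and its sign turned with TPM as deposited (−0.18). HNRNPU-AS1 had −0.45 ± 0.15 (standard error, adjusted p = 0.117), OIP5-AS1 −0.05 (adjusted p = 0.436) and MEF2C-AS1 −0.19 (adjusted p = 0.125), all by limma. The HNRNPU-AS1 groups were apart in scaled TPM, at 49.8 to 54.0 against 62.2 to 91.6, and control a was the highest of the 6. The largest negative values of all belonged to genes that missed the threshold and that reached the level rule only through the controls, with HA-TAZ means of 1.59 TPM for TAB3-AS2, 1.57 for USP12-AS1 and 1.33 for IL20RB-AS1. TAB3-AS2 was at 1.25, 2.99 and 0.903 against 13.2, 5.83 and 4.87 scaled TPM, with −1.69 ± 0.43 (adjusted p = 0.0677), USP12-AS1 had −0.82 (adjusted p = 0.0994) and IL20RB-AS1 −0.70 (adjusted p = 0.114). TAB3-AS2 was again highest in control a, and without that library its log2 fold change was −1.28.

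Among the partners, 205 of the 226 reached a mean of 1 TPM and were tested, and 15 passed (7.32%, against 7.29% of all genes), 8 higher and 7 lower. This share is that of the background. SOX9, a transcription factor of cartilage and progenitor cells, rose most: it was at 5.70, 5.82 and 5.21 scaled TPM against 1.73, 1.56 and 1.40, a log2 fold change of 1.36 ± 0.10 (standard error, limma adjusted p = 0.00466). CDKN2B, which encodes the cell cycle inhibitor p15, was at 15.8, 16.4 and 16.6 against 8.75, 7.79 and 10.1, with 0.81 ± 0.10 (adjusted p = 0.0149). Both were separated by far more than the spread within a group. SOX9 passed without each of the 6 libraries in turn, and CDKN2B in 1 of those 6 fits.

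VIM (0.54), CFLAR (0.52), an inhibitor of death receptor signalling, and MAFG (0.49), a small MAF factor, rose too, at adjusted p-values of 0.0134, 0.00891 and 0.0114 (limma). DYNLL1 (0.33), LAMTOR5 (0.39) and KDM4A (0.26) complete the 8. With TPM as deposited CDKN2B and SOX9 still passed, the other 6 did not, and KDM4A, a histone demethylase gene, changed sign (−0.02). The fallers were ST3GAL6 (−0.51), a sialyltransferase gene, PDCD4 (−0.50), an inhibitor of translation, KMT2E (−0.33), EDRF1 (−0.28), MEF2C (−0.25), a transcription factor of B cells and muscle, PTPRG (−0.23) and ASH1L (−0.21), a histone methyltransferase gene. ST3GAL6 was at 104, 112 and 111 scaled TPM against 150.1, 160.5 and 156. PDCD4 was at 59.98, 59.7 and 54.7 against 86.9, 84.9 and 75.5 scaled TPM. Both groups of values lay well apart, and ST3GAL6 and PDCD4 passed under all 7 alternative settings with every library kept. The numbers of called partners fell to between 1 and 7 without a single library, while 0.517% to 1.92% of all genes were called in those fits.

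No pair had both genes past the threshold. The HIF1A pair came nearest, with HIF1A-AS2 called and HIF1A at an adjusted p of 0.0691 (limma), both with positive values. MAFG-AS1, now MILIP, lies beside a called partner and was at 2.41, 2.33 and 2.80 scaled TPM against 1.5, 1.63 and 1.86 (log2 fold change 0.40, adjusted p = 0.0762). MEF2C-AS1 (−0.19), ST3GAL6-AS1 (−0.25) and PDCD4-AS1 (−0.31) had negative values beside partners that fell, without passing. Over the 208 pairs in which both genes were fitted, 72 had both values negative, 37 both positive, 73 a lower antisense gene with a higher partner and 26 the reverse. The Spearman correlation of the 2 changes was 0.13 over these pairs, which share the same 6 libraries, and is given as a description.

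**Figure D4:**
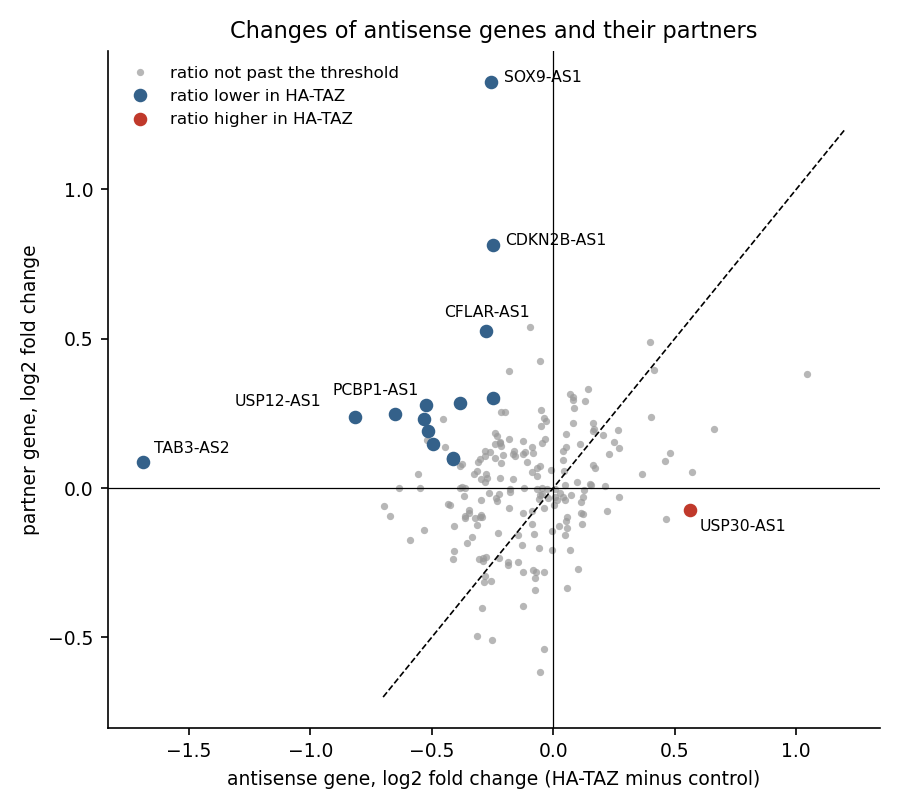
Log2 fold change (HA-TAZ minus control) of each antisense gene (horizontal) and of its partner (vertical), 1 point per pair, for 208 pairs; the dashed line marks equal change. Pairs whose antisense to partner ratio was lower lie to the upper left, with SOX9-AS1 and CDKN2B-AS1 high on the partner axis and TAB3-AS2 far to the left, and USP30-AS1 is the 1 pair with a higher ratio.

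The ratio of antisense gene to partner was tested for each of 301 named pairs with both genes at 1 TPM or more, of which 208 are pairs of the antisense genes described here. Of the 208, 15 passed (limma on the log2 ratio, Benjamini-Hochberg over the 301), 14 lower and 1 higher in HA-TAZ libraries. The 14 include TAB3-AS2 and USP12-AS1, which reached the level rule only through the controls. The count without such genes is not given. Over all 301 pairs 6.64% passed, 6.31% lower and 0.332% higher, so the lower sign was shared by pairs below the level rule. The median change of the log2 ratio was −0.14 over the 208 and −0.15 over the other 93. Between 4 and 6 of the 208 passed without a single library, and 6 with a pseudocount of 0.1.

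The SOX9 pair changed most clearly. SOX9-AS1 held 30.0, 28.4 and 37.4% of the pair's TPM in HA-TAZ 1, 2 and 3 and 66.8, 68.4 and 68.6% in control a, b and c, so the more abundant member of the pair switched from the antisense gene to SOX9. The log2 ratio changed by −1.62 ± 0.14 (standard error, limma adjusted p = 0.000599). Most of this lay in SOX9, since SOX9-AS1 itself had a log2 fold change of −0.26 that did not pass (adjusted p = 0.200). CDKN2B-AS1, also known as ANRIL, held 31.4, 33.2 and 33.5% against 54.4, 54.5 and 47.2% of its pair, and its log2 ratio changed by −1.06 ± 0.14 (adjusted p = 0.00705). Here too the partner rose, and CDKN2B-AS1 had −0.25 (adjusted p = 0.119). The exons of neither pair overlap in GENCODE 29.

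In the pairs of APOBEC3B-AS1, PCBP1-AS1 and TAB3-AS2 the antisense gene had a negative log2 fold change of larger absolute size than its partner's. The same held for DGUOK-AS1, CERS6-AS1 and USP12-AS1. APOBEC3B-AS1 held 38.5, 40.4 and 41.8% against 56.8, 55.8 and 56.3% of its pair (log2 ratio −0.80 ± 0.11, standard error, adjusted p = 0.00745), while APOBEC3B had a log2 fold change of 0.28 (adjusted p = 0.0699). PCBP1-AS1 held 12.4% ± 1.18 against 21.2% ± 3.06 (SD, n = 3 each), and TAB3-AS2, opposite a TAK1 adaptor gene, 16.1% ± 8.07 against 47.8% ± 11.7 (SD, n = 3 each). The ratio fell by 0.90 and 1.77 on the log2 scale, at adjusted p-values of 0.0217 and 0.0226 (limma). TAB3-AS2 reached the level rule only through the controls and was highest in control a. TAB3 itself had 0.09 (adjusted p = 0.557). Smaller shares fell in the pairs of DGUOK-AS1, from 9.94% to 6.07%, of GAS5-AS1, from 6.24% to 4.28%, and of CERS6-AS1, from 20.7% to 12.2%, each with a ratio at an adjusted p of 0.0295 (limma). For GAS5-AS1 the log2 fold change was −0.25 and that of GAS5, a host gene of small nucleolar RNAs, was 0.30, and neither passed alone. The other lower ratios included USP12-AS1, with a share of 23.2% against 44.4%, and CFLAR-AS1, with 9.07% against 15.3%, where CFLAR was the gene that rose.

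USP30-AS1 was the exception. It was at 6.33, 6.09 and 6.43 scaled TPM against 4.31, 4.49 and 3.12 (log2 fold change 0.56, limma adjusted p = 0.0564), while USP30, a mitochondrial deubiquitinase gene, had −0.07 (adjusted p = 0.573). Its share was 39.3, 41.9 and 43.4% against 30.7, 32.4 and 25.7%, and the log2 ratio changed by 0.63 ± 0.14 (standard error, limma adjusted p = 0.0349). The shares restate the ratios in the same 6 libraries and are given as a description, with no test of their own.

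**Figure D5:**
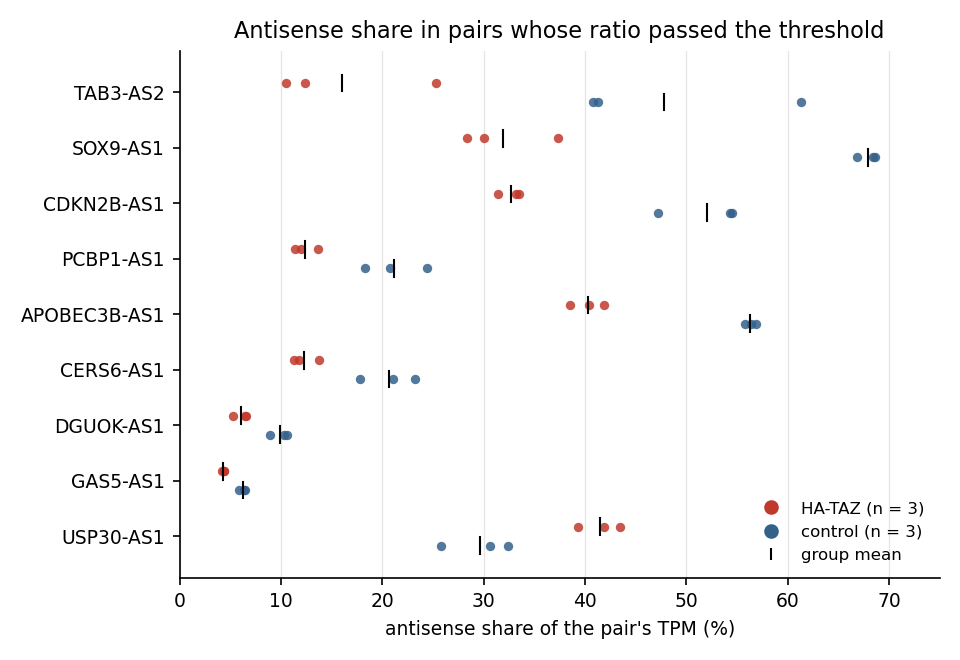
Antisense share of the pair's TPM (percent, from 0) in each library for 9 pairs whose ratio passed the threshold, HA-TAZ libraries in red, controls in blue, group means as bars. The SOX9-AS1 share falls from 66.8 to 68.6% in controls to 28.4 to 37.4%, TAB3-AS2 has the widest spread, and USP30-AS1 is the 1 pair in which HA-TAZ libraries lie to the right.

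The arrangement of the pairs was read from GENCODE 29. Exons of the antisense gene and its partner overlapped in 148 of the 236, by a median of 260.5 bases, gene bodies overlapped without shared exons in 45, and 30 were head to head without overlap, with starts a median of 120.5 bases apart. Of the rest, 11 were not classified, 1 lay on the same strand and 1 was placed otherwise. The median log2 fold change of the antisense genes was −0.13, −0.23 and −0.07 in these 3 classes, all below that of all genes tested. Calls by limma numbered 10 of 148 (6.76%, 1 higher), 2 of 45 (4.44%, 1 higher) and 0 of 30, against 7.29% of all genes tested. In the head to head class 7 of 30 genes were lower and 4 higher at an unadjusted p under 0.05, against 14.1% lower and 16.6% higher of all genes tested. The partners' medians were 0.01, 0.00 and 0.06 in the same order.

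Other transcript forms were measured in the same way. Among transcripts of the partners at a mean of 1 TPM or more, 232 annotated as retained introns had a median log2 difference of −0.13 and 535 protein-coding transcripts one of 0.06. Over all genes the corresponding medians were −0.10 for 9828 retained-intron and 0.10 for 23340 protein-coding transcripts. Transcripts annotated as processed transcripts had medians of −0.20 in the partners and −0.10 over all genes, and those subject to nonsense-mediated decay −0.08 and −0.02. These forms thus had lower medians than protein-coding transcripts, and their part in the antisense result was not tested. Of the 23 genes listed for the nuclear exosome and its cofactors, which degrade many antisense RNAs, 3 passed and were higher by limma, EXOSC1 (0.28) and EXOSC4 (0.41), which encode subunits of the exosome, and PABPN1 (0.20), a nuclear poly(A) binding protein gene. That is 13.0% of the list, against 7.29% of all genes and 10.5% of protein-coding genes at a mean of 2 TPM or more. Of the 23, 18 had a positive and 5 a negative value (21.7% negative). Of those protein-coding genes 36.8% had a negative value, and their median was 0.07. The list was not tested against them. ZFC3H1 (−0.20) and ZCCHC8 (−0.07) were lower in each HA-TAZ library than in any control on both scales, without passing. The list's median was 0.08 in this scaling, 0.01 with factors from protein-coding genes and −0.22 with TPM as deposited, so its sign depends on the scaling, and the groups of EXOSC1 and PABPN1 overlapped in TPM as deposited.

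The authors' deposited table tests transcripts rather than genes. It gives statistics for 896 of the 1281 transcripts of the antisense genes, and 35 of them (3.91%) had a q-value under 0.05, against 5.68% of all transcripts with statistics. Of the 35, 26 had a negative and 9 a positive effect, whereas over all transcripts in that table positive effects were the more frequent, 4.08% against 1.60%. The median effect was −0.10 for the antisense transcripts and −0.003 for all, in natural log units of the authors' deposited table. A gene can hold transcripts of both signs. In the authors' deposited table MEF2C-AS1 has ENST00000508742.1 with an effect of 0.665 ± 0.164 (standard error, q = 0.00248) and ENST00000514011.1 with −0.414 ± 0.134 (q = 0.0390). UGDH-AS1, SLC39A12-AS1 and CELF2-AS1 have transcripts at q-values of 0.00450, 0.000388 and 0.00216 in the authors' deposited table, all with negative effects. For USP30-AS1 and MAFG-AS1 it gives positive effects at q-values of 0.0183 and 0.0155. The 2 tests also differed. For INTS6-AS1, TMEM161B-AS1 and BZRAP1-AS1, called by limma, the lowest q-values among the more abundant transcripts were 0.245, 0.0753 and 0.0741. FAM211A-AS1 and HNRNPU-AS1 were not called by limma. They have ENST00000481027.1 with a positive effect (q = 0.00585) and ENST00000366527.3 with a negative effect (q = 0.0368).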

How the data were processed

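Total RNA of 6 KMS27 libraries was sequenced after ribosomal depletion, per the labels' protocols. Per the submitters' processing notes kallisto 0.46.0 and sleuth 0.30.0 were used on GRCh37. The annotation release and strand setting are not given in the sources used here. The authors deposited TPM for 215170 transcripts. The authors' deposited table of a sleuth comparison holds p-values and q-values and, in natural log units per the file headers and values, effects, standard errors and means.

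TPM was summed per gene ID, divided by median-of-ratios factors (21512 tested genes above 0 in all libraries) and tested as log2(scaled TPM + 1) with limma 3.58.1 with an intensity trend (R 4.3.3), two-sided, with Benjamini-Hochberg adjustment over the 22651 genes with a mean of at least 1 TPM. Ratios within pairs were tested in the same way. The code was tested on simulated data. GENCODE 29 gave gene types and arrangements by ID, for 82.5% of gene IDs, and RefSeq gave promoters on GRCh38.p14, another build than that of the files. Library sums were compared by exact permutation (Python 3.11.15).

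Members and lists were chosen with earlier results of these data known. Genes named are the called antisense genes and partners (at most 10 in each direction), the 6 highest, the 3 largest changes each way, the extreme pair ratios and the called ratios (at most 8 in each direction). Alternatives were pseudocounts of 0.1 and 0.5, other level filters, TPM as deposited, factors from protein-coding genes, limma without trend and each library left out.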

Additional observations from a re-analysis of the deposited data

How the results depend on the processing

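The sign of the antisense median was more stable than the calls, while the medians of the partners and of the nuclear exosome list changed sign. The median log2 fold change of the antisense genes was negative under each alternative run, and its distance from the median of all genes lay between −0.16 and −0.09. It was −0.17 with a pseudocount of 0.1, −0.38 with TPM as deposited, −0.19 with factors from protein-coding genes and −0.16 to −0.11 without single libraries. Antisense genes called numbered 2 without a filter on level, 5 without the limma trend, 57 with TPM as deposited and 0 to 1 without single libraries; of the 57, 12 were among the 13. Called partners numbered 8 without a filter, 25 among genes of 5 TPM or more, 41 with TPM as deposited, 7 without the trend, 6 for antisense genes at 5 TPM or more and 1 to 7 without single libraries. The share of all genes called moved as well. It was 1.46% without a filter, 17.8% among genes of 5 TPM or more and 14.7% with TPM as deposited. Without the trend it was 3.35%, and without single libraries 0.517% to 1.92%. The partners' median was −0.25 with TPM as deposited, −0.056 with factors from protein-coding genes, 0.053 for antisense genes at 5 TPM or more and 0.0098 to 0.042 without single libraries. Called ratios numbered 6 with a pseudocount of 0.1, 27 among genes of 5 TPM or more and 4 to 6 without single libraries. The nuclear exosome list's median was −0.22 with TPM as deposited, 0.0065 with factors from protein-coding genes and 0.071 to 0.12 without single libraries. KDM4A turned to −0.025 with TPM as deposited. Antisense transcripts called in the authors' deposited table numbered 13 at a q-value under 0.01. The share of called genes that were higher, over all genes, was 64.0% in the reported fit, 7.84% with TPM as deposited and 43.4% with factors from protein-coding genes; filters and left-out libraries change the number tested or the samples, and the cause of the other moves was not tested. WWTR1 passed under every alternative run, at 6.55 to 7.33. No paired analysis was possible because the control columns carry numbers under a name that is in no label and cannot be tied to numbered samples. Antisense genes of 2 to 5 TPM rest on a median of about 124 estimated counts in the authors' deposited table, a counting error of about 9.0%.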
